A study of Mus musculus with 6 samples.

Results

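The renin-angiotensin system genes measured here were 9 genes chosen by name from the 41064 genes of the deposited table: Agt, Ren1, Ace, Enpep, Atp6ap2, Agtr1a, Agtr1b, Agtr2 and Mas1. They were read in 6 RNA-seq libraries from mouse aorta, 3 labelled JOSD2 KO and 3 labelled WT, where Josd2 encodes a deubiquitinase. All mice had received Ang II, the end product of this system, so untreated aorta was not analysed here and every difference lies between the labelled genotypes under treatment. The labels give no age, sex, strain, dose, way of deletion or cell type of deletion, and although the design text counts 3 mice a group, libraries are not tied to single animals by any label. The p-values therefore measure the spread between these libraries, which may be technical.

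In the renin-angiotensin system, the protease renin cuts the plasma protein angiotensinogen to angiotensin I, and angiotensin-converting enzyme on endothelium turns that into angiotensin II. Angiotensin II constricts vessels through the AT1 receptor, which mice encode in a pair of genes, Agtr1a and Agtr1b. Its AT2 receptor (Agtr2) and the receptor Mas (Mas1), which binds a shorter angiotensin peptide, are known for opposing effects. In most settings renin comes from the kidney and angiotensinogen from the liver, while fat and the vessel wall hold smaller amounts.

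Library depth was 63612353 to 75886761 deposited counts, read as about 4 counts per read pair because low counts peaked at 4, 8 and 12. Among well counted genes, the variance between libraries of a group over the mean count had a median of 5.31 in the labelled knockouts. In wild type it was 8.80. Counting of read pairs alone would give about 4, and the p-values below rest on this small spread. Levels are given as CPM, counts brought to a common library size with TMM factors, and differences as log2 fold change of the labelled knockout over wild type with its SE. A gene is called, and said to rise or fall, where its adjusted p is under 0.05 (quasi-likelihood test of edgeR, Benjamini-Hochberg over 20132 tested genes). Josd2 itself was still present in the libraries labelled knockout, at 21.7, 19.9 and 21.4 CPM against 29.9, 31.0 and 29.3 CPM in wild type, so each direction below rests on the label. Mitochondrially encoded genes took 23.8% to 23.9% of counts in the labelled knockouts and 36.2% in each wild type library. Scaled by library totals in place of TMM, the median tested gene stood 0.41 log2 higher in the labelled knockouts, against 0.00 with TMM. The tissue label was checked on 8 smooth muscle markers, among them Acta2 and Tagln, with none at 0. Their summed level was 19883 to 19998 CPM in the labelled knockouts and 20597 to 20761 CPM in wild type. Of these markers 4 rose, 2 fell and 2 did not pass in edgeR, with a median log2 fold change of 0.17. Acta2, the most abundant, fell by 0.30 on the log2 scale.

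Of the 9 genes, 7 passed the filter on low counts, while Agtr2 and Mas1 did not. Between the labelled genotypes 1 gene rose (Ace), 3 fell (Ren1, Agtr1b and Enpep) and 3 did not pass (Agt, Agtr1a and Atp6ap2). Over all tested genes the same test called 24.7%, with 13.2% higher and 11.5% lower. Under scaling by library totals 3 of the 7 were called higher (Ace, Agtr1a and Atp6ap2) and 2 lower (Ren1 and Agtr1b). Enpep lost its call. That scaling called 50.6% of all tested genes, with 9425 higher and 768 lower. This share is the background of every count with library totals below. For all 7 tested genes the libraries of the labelled knockout did not overlap those of wild type, which held for 41.1% of all tested genes.

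**Figure D1:**
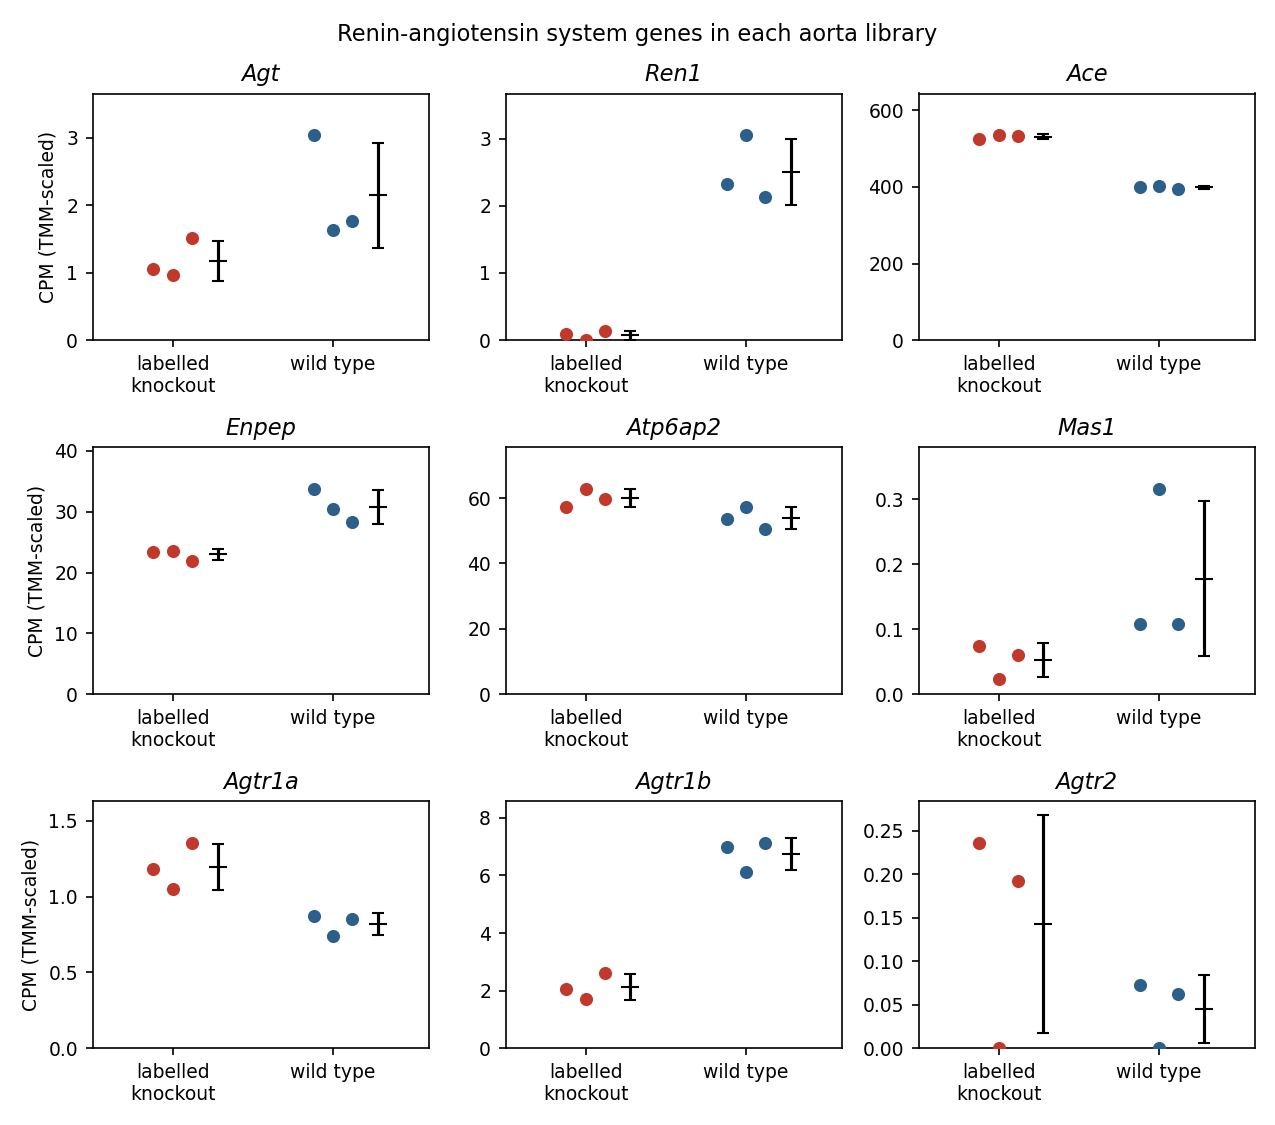
Level of each renin-angiotensin system gene in CPM (y axis, linear, from 0) in the 3 labelled knockout libraries (red, left) and the 3 wild type libraries (blue, right), where black bars mark mean and SD. Ace stands higher in the labelled knockouts, at 524 to 536 CPM against 394 to 402 CPM, while Ren1 and Agtr1b stand far lower, and Agtr2 and Mas1 lie below 0.4 CPM in every library.

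The promoters of the 4 called genes are shown because their expression carries the differences described below. Each window runs from 250 bases before the RefSeq start base and takes in 50 bases from it on, on GRCm38.p6, 5′ to 3′ on the gene's strand. It lies at chr1:133350424-133350723 on the plus strand for Ren1, chr3:20367128-20367427 on the minus strand for Agtr1b, chr3:129332700-129332999 on the minus strand for Enpep and chr11:105967698-105967997 on the plus strand for the upstream of 2 Ace windows. Capitals mark TATAAA, the TATA box core, and GGGCGG, the GC box, on either strand.
Ren1: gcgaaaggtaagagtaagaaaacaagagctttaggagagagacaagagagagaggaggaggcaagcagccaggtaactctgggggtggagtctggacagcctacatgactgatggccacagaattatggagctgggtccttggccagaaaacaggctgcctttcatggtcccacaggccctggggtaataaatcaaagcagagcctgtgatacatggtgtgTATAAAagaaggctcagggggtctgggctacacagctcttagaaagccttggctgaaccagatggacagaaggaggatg
Agtr1b: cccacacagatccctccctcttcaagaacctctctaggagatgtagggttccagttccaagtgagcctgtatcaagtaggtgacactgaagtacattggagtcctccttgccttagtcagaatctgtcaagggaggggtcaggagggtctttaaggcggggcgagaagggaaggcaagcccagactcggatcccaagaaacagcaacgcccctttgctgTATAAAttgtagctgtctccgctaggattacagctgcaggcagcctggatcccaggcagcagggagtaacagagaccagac
Enpep: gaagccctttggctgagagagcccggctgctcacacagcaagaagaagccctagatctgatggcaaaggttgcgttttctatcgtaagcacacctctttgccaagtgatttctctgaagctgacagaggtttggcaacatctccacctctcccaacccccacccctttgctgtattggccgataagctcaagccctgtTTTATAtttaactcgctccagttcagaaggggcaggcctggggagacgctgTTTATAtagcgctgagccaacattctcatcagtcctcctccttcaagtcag
Ace: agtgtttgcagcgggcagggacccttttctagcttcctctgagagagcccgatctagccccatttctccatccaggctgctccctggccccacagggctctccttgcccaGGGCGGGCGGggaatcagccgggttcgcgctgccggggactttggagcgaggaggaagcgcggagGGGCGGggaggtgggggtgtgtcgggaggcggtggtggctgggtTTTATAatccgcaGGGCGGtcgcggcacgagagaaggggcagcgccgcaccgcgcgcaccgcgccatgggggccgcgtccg
Counting the start base as 0, TATAAA began at -29 in Ren1 and at -31 in Agtr1b, both on the gene's strand. In Ace (-31) and Enpep (-52 and -1) it lay on the opposite strand and is printed as TTTATA. Positions there are those of the first printed base of the match. Among the windows printed, only Ace held the GC box, with 4 matches. Of 32851 promoter windows of the same length, 13.6% held TATAAA and 35.7% held GGGCGG. A CRE, TGACGTCA, was in none of these 4 windows and in 1.79% of all windows. RefSeq windows were found for 8 of the 9 genes, the exception being Agtr1a.

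The renin substrate and its protease were both rare transcripts, and of them Ren1 fell in the labelled knockouts. Ren1 encodes renin, the protease that starts the cascade, and lies on chromosome 1 from 133350510 to 133360325 on the plus strand (GRCm38 coordinates, as the deposited table has them). Its level was 0.0871, 0 and 0.132 CPM in the labelled knockouts, against 2.32, 3.06 and 2.13 CPM in wild type. Every labelled knockout library thus lay below every wild type library, and labelled knockout 2 held no Ren1 count. In deposited counts these were 7, 0 and 11 against 128, 174 and 137, or about 4 read pairs in all against about 110. The ratio of the labelled knockout to wild type in read pairs was 0.0256, with an exact 95% interval of 0.00684 to 0.0673 that covers counting error only. Ren1 fell by 5.08 on the log2 scale (SE 0.69, adjusted p = 0.000267 in edgeR). With so few reads in the labelled knockouts the fitted size depends on the method, and limma on log2(FPKM + 1), a scale that shrinks low genes, gave -1.01 (limma adjusted p = 0.000127). Over 16 alternatives Ren1 stayed called, at -5.82 to -1.01 (adjusted p = 5.56e-07 to 0.00209). Some mouse strains carry a near-identical copy, Ren2, whose reads could be counted here, and the labels give no strain.

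Kidney is the usual source of renin. Of 14 kidney markers 6 were tested, of which 2 fell (Aqp2 and Nphs1), 0 rose and 4 did not pass in edgeR. The summed level of the 14 was 11.2 to 12.8 CPM in the labelled knockouts and 29.8 to 33.2 CPM in wild type. Aqp2, the water channel of the collecting duct, fell by 5.54 in log2 (SE 0.23, adjusted p = 1.77e-08 in edgeR), to 0.358 ± 0.138 CPM in the labelled knockouts, against 16.6 ± 0.662 CPM in wild type (SD, n = 3 each). Nphs1, which encodes the podocyte protein nephrin, stood at 10.2 ± 0.661 CPM in the labelled knockouts and 13.5 ± 1.30 CPM in wild type (log2 fold change -0.41, adjusted p = 0.0212 in edgeR). With library totals 1 kidney marker was called higher and 1 lower. Without Aqp2 the other 13 markers summed to 11.0 to 12.3 CPM in the labelled knockouts and 13.7 to 15.8 CPM in wild type. Of the 14 markers, 12 lay below 1 CPM in every library and Scnn1g was at 0 in all 6. Umod, Kap and Calb1 each had counts in 1 wild type library and in no other, and Slc22a6 in 1 labelled knockout library and in no other. Slc12a3, a distal tubule transporter gene, stood at 0.807 ± 0.117 CPM in the labelled knockouts and 0.429 ± 0.0682 CPM in wild type (SD, n = 3 each) and did not pass (adjusted p = 0.177 in edgeR). The part of kidney RNA in the Ren1 difference was not tested. In bulk tissue, fewer cells of a type and less RNA per cell cannot be told apart, here and in each result below.

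Agt encodes angiotensinogen, the sole precursor of the angiotensins, on chromosome 8 from 124556534 to 124569706 on the minus strand. Its level was 1.06, 0.962 and 1.51 CPM in the labelled knockouts, against 3.05, 1.64 and 1.77 CPM in wild type. Wild type 1 stood well above the other wild type libraries, which lay close to labelled knockout 3. The log2 fold change was -0.87 (SE 0.34, 95% interval -1.61 to -0.13) and did not pass the test (adjusted p = 0.0873 in edgeR). DESeq2 called the difference (adjusted p = 0.0259). Without wild type 1 the log2 fold change was -0.53 (adjusted p = 0.321 in edgeR), and over 15 alternatives the adjusted p was 0.0259 to 0.321.

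Fat and liver are known to make angiotensinogen, and their markers were read beside Agt. The 8 white fat markers summed to 344 to 359 CPM in the labelled knockouts and 246 to 260 CPM in wild type, led by Cfd (adipsin, log2 fold change 0.85) and Pnpla2, a lipase (-0.03), and 4 of them rose, 0 fell and 4 did not pass in edgeR. The 7 brown fat markers summed to 181 to 194 CPM in the labelled knockouts and 89.4 to 95.8 CPM in wild type, led by the deiodinase Dio2 (1.06) and Cidea (0.62). Without Dio2 they summed to 11.86 to 17.1 CPM in the labelled knockouts and 9.17 to 11.97 CPM in wild type, and the groups overlapped. Of 5 tested brown fat markers 2 rose and 3 did not pass, with a median of 0.05, and Ucp1, the defining gene of brown fat, did not pass (-0.24, adjusted p = 0.557 in edgeR). The 7 hepatocyte markers summed to 55.2 to 63.2 CPM in the labelled knockouts and 33.1 to 36.6 CPM in wild type, led by albumin (Alb, 0.72) and Ahsg (1.29), the 2 that rose, while 5 did not pass. With library totals 5 white fat, 2 brown fat and 6 hepatocyte markers were called higher, and edgeR called 0 lower in each list. The part of these tissues in the Agt values was not tested.

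The enzymes that make and remove angiotensin II were among the more abundant of the system, with Ace higher and Enpep lower by TMM in the labelled knockouts. Ace, angiotensin-converting enzyme, lies on chromosome 11 from 105967945 to 105989964 on the plus strand. It stood at 524, 536 and 531 CPM in the labelled knockouts, against 400, 402 and 394 CPM in wild type. The libraries within a group differed far less than the groups did. Ace rose 1.33-fold (log2 fold change 0.41 with SE 0.02, adjusted p = 7.17e-08 in edgeR), and by 0.82 on the log2 scale with library totals. The antisense gene Gm11651 overlaps 5.58% of Ace exon bases, and the sources used here do not give the strand setting of the counting.

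Ace is a known product of endothelium, and markers of blood endothelium rose as well. Of 10 such markers 8 rose, 1 fell and 1 did not pass, and their summed level was 848 to 860 CPM in the labelled knockouts and 526 to 535 CPM in wild type, with none at 0. The adhesion molecule gene Pecam1 rose 1.31-fold (log2 fold change 0.39, adjusted p = 1.74e-06 in edgeR), whereas the tight junction gene Cldn5 fell by 0.29 on the log2 scale. With library totals 9 of the 10 were called higher and edgeR called 0 lower. The part of endothelial RNA in the Ace difference was not tested. Lung capillaries are rich in this enzyme too. Of 7 lung epithelial markers 5 fell and 2 did not pass. They summed to 2.96 to 4.86 CPM in the labelled knockouts and 17.9 to 22.4 CPM in wild type, with surfactant protein C (Sftpc) at 0.125 ± 0.108 CPM and 7.51 ± 1.196 CPM, and Scgb1a1 at 0.576 ± 0.0721 CPM and 2.65 ± 0.213 CPM (SD, n = 3 each).

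Enpep encodes glutamyl aminopeptidase, which trims angiotensin II to angiotensin III, on chromosome 3 from 129269175 to 129332720 on the minus strand. It stood at 23.4, 23.5 and 21.9 CPM in the labelled knockouts, against 33.8, 30.4 and 28.3 CPM in wild type. All labelled knockout libraries lay below the lowest wild type library. Enpep fell by 0.42 on the log2 scale (SE 0.08, adjusted p = 0.00254 in edgeR), but scaled by library totals it stood at -0.01 (adjusted p = 0.906 in edgeR), so this call rests on the scaling (adjusted p = 2.89e-07 to 0.914 over 16 alternatives). On the deposited FPKM scale its means were 4.75 ± 0.177 in the labelled knockouts and 4.81 ± 0.432 in wild type (SD, n = 3 each). The 8 pericyte markers, a cell type known for this enzyme, summed to 1500 to 1524 CPM in the labelled knockouts and 1905 to 1942 CPM in wild type. Rgs5 fell by 0.93 on the log2 scale and Pdgfrb rose by 0.27, and 4 of the 8 markers rose while 2 fell. Their median log2 fold change was 0.22, opposite in sign to the change of the sum. With library totals 6 were called higher and 1 lower, with a median of 0.63. The part of pericyte RNA in the Enpep difference was not tested.

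Atp6ap2, the (pro)renin receptor and an accessory subunit of the vacuolar proton pump, lies on chromosome X from 12587801 to 12617049 on the plus strand. It stood at 57.4, 62.9 and 59.6 CPM in the labelled knockouts, against 53.6, 57.3 and 50.6 CPM in wild type. The lowest labelled knockout library and the highest wild type library were nearly equal, and the log2 fold change of 0.16 (SE 0.06, 95% interval 0.02 to 0.29) did not pass the test (adjusted p = 0.083 in edgeR). It passed with library totals (0.57, adjusted p = 1.52e-05 in edgeR), in DESeq2 (0.15, adjusted p = 0.0233) and without wild type 2 (0.21, adjusted p = 0.0358 in edgeR), and over 16 alternatives the adjusted p was 1.52e-05 to 0.263. A transcript of the gene model Gm36448 matches 18.8% of the Atp6ap2 transcript at 97% identity or more, so part of its count is uncertain.

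**Figure D2:**
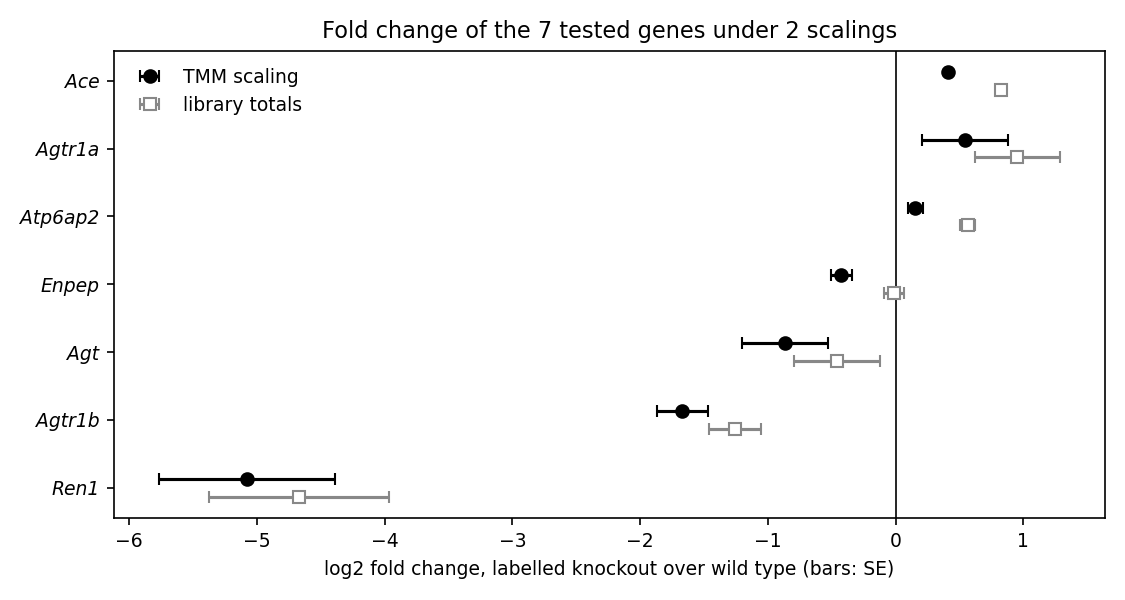
Log2 fold change of the labelled knockout over wild type (x axis) with SE for the 7 tested genes, scaled by TMM (black circles) or by library totals (open squares). Ren1 and Agtr1b lie below 0 and Ace above 0 under both scalings, whereas Enpep lies at -0.42 with TMM and at -0.01 with library totals.

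Of the AT1 receptor gene pair, Agtr1b fell and Agtr1a did not pass. Agtr1b, an AT1 receptor gene on chromosome 3 from 20314473 to 20367177 on the minus strand, stood at 2.05, 1.72 and 2.59 CPM in the labelled knockouts, against 6.98, 6.12 and 7.14 CPM in wild type. The highest labelled knockout library lay below the lowest wild type library by a wide margin. Agtr1b fell by 1.67 on the log2 scale (SE 0.20, adjusted p = 0.000104 in edgeR), to 31.4% of its wild type level, and by 1.26 with library totals (adjusted p = 0.000349 in edgeR). It stayed called in all 16 alternatives, with an adjusted p of at most 0.0011. Adrenal cortex is a known site of Agtr1b in mice. Its 8 markers summed to 3.30 to 4.23 CPM in the labelled knockouts and 2.67 to 4.58 CPM in wild type, and 7 of them lay below 1 CPM in every library. The steroid transport gene Star, the exception, stood at 3.29 ± 0.616 CPM and 2.69 ± 0.971 CPM, and the corticotropin receptor gene Mc2r at 0.110 ± 0.0990 CPM and 0.299 ± 0.276 CPM (SD, n = 3 each).

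Agtr1a, the other AT1 receptor gene, lies on chromosome 13 from 30336441 to 30382867 on the plus strand. It stood at 1.18, 1.05 and 1.36 CPM in the labelled knockouts, against 0.870, 0.739 and 0.854 CPM in wild type. Each labelled knockout library lay above each wild type library, but the counts were low, at 92 to 113 and 42 to 55 per library. The log2 fold change of 0.54 (SE 0.33, 95% interval -0.20 to 1.28) did not pass the test (adjusted p = 0.284 in edgeR). It passed upward with library totals (0.95, adjusted p = 0.0329 in edgeR), and over 15 alternatives the adjusted p was 0.00874 to 0.525.

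Because both genes encode the same kind of receptor, their shares were set side by side, a measure chosen after their values were seen. Per length, on the deposited FPKM scale, Agtr1b made up 69.3%, 68.0% and 71.3% of AT1 receptor transcripts in the labelled knockouts, against 91.2%, 91.5% and 91.7% in wild type. This share does not depend on how libraries are scaled. The difference was -21.9 percentage points, between means of 69.5% ± 1.68 and 91.5% ± 0.240 (SD, n = 3 each, two-sided exact permutation p = 0.1, the smallest that 3 against 3 libraries can give). Summed over both genes, AT1 receptor transcripts stood at 3.23, 2.77 and 3.95 CPM in the labelled knockouts, against 7.85, 6.86 and 7.995 CPM in wild type. Most of that sum was Agtr1b in every library.

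**Figure D3:**
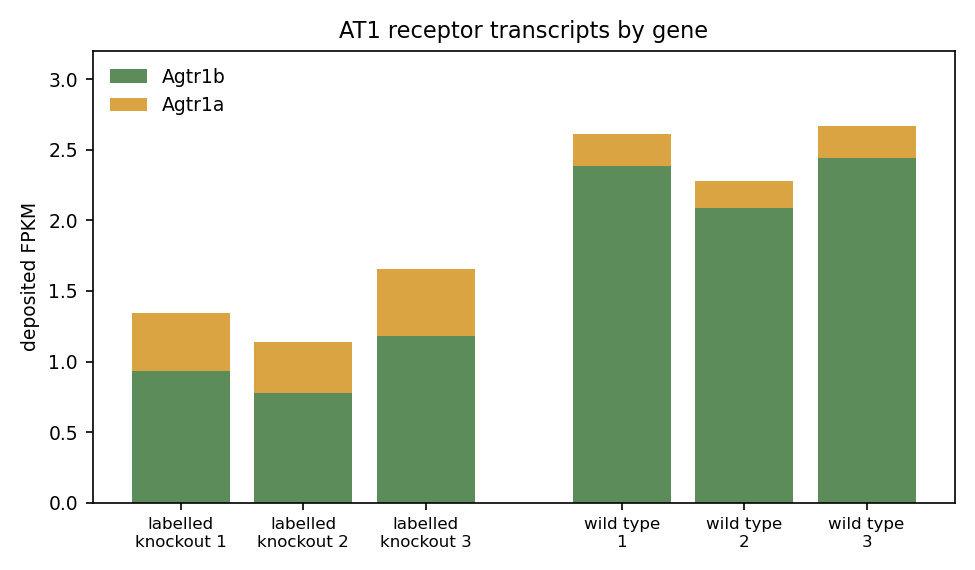
Deposited FPKM (y axis, linear, from 0) of Agtr1b (green) and Agtr1a (yellow), stacked, in each labelled knockout library (left) and each wild type library (right). The sums are 1.14 to 1.66 FPKM in the labelled knockouts and 2.28 to 2.67 FPKM in wild type, and Agtr1b is the larger part in every library.

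Whether reads of this gene pair can be told apart depends on their sequences. Their coding regions, 1080 bases each in GENCODE M21, were 90.8% identical, with 99 differing bases and a longest identical run of 66 bases. BLAST gave no alignment of 100 bases or more between either transcript and another gene's that reached 97% identity over its whole length. An alignment of the 2 coding regions, at 90.8%, lies under that limit, so closer stretches within it could be missed. The search therefore does not settle whether all reads of the pair can be told apart. The 100 coding bases that differ most, from base 972 to base 1071 of each coding region, are shown with the 22 differing bases in capitals. They are the least alike stretch, and the rest of the coding regions is more alike.
Agtr1a: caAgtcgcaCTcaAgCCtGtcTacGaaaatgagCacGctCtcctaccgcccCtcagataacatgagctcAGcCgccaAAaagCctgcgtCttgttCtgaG
Agtr1b: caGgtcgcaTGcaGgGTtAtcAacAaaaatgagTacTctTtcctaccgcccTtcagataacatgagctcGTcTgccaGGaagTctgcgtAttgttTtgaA
Agtr1a and Agtr2, for comparison, shared 48.0% of aligned coding bases.

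Agtr2 and Mas1 were at the limit of detection. Agtr2, the AT2 receptor gene on chromosome X from 21484544 to 21489164, had 19, 0 and 16 counts in the labelled knockouts, against 4, 0 and 4 in wild type. That is about 9 read pairs against about 2, a ratio of 3.16 with an exact 95% counting interval of 0.655 to 30.1, so no difference was detectable at this depth. Mas1, on chromosome 17 from 12841079 to 12868143, had 6, 2 and 5 counts in the labelled knockouts, against 6, 18 and 7 in wild type. With about 3 and 8 read pairs its ratio was 0.264 (0.0451 to 1.10), which likewise shows no detectable difference, although in CPM its groups did not overlap while those of Agtr2 did. The floor that 3 read pairs set was 0.137 to 0.149 CPM per labelled knockout library and 0.186 to 0.218 CPM per wild type library, and both genes lay under it except Agtr2 in labelled knockouts 1 and 3 and Mas1 in wild type 2.

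In order of deposited FPKM, levels per length, the 3 most abundant genes were the same in both groups. Deposited FPKM are scaled to library totals, so they serve here to order genes within a group. Differences between groups on this scale are not those found with TMM. Ace averaged 97.9 ± 1.13 FPKM in the labelled knockouts and 55.4 ± 0.555 FPKM in wild type, and Atp6ap2 averaged 22.3 ± 1.02 FPKM and 15.1 ± 0.912 FPKM (SD, n = 3 each). Enpep followed in both. In the labelled knockouts Agtr1b (0.962 FPKM) and Agt (0.606 FPKM) came next with libraries that overlapped, then Agtr1a (0.417 FPKM), and Ren1, Agtr2 and Mas1 overlapped at 0.0162 to 0.0409 FPKM. In wild type Agtr1b (2.30 FPKM) stood clear of Ren1 (1.11 FPKM) and Agt (0.831 FPKM), whose libraries overlapped, and Agtr1a (0.215 FPKM), Mas1 (0.0446 FPKM) and Agtr2 (0.00962 FPKM) were lowest. Ren1 thus took the seventh place in the labelled knockouts and the fifth in wild type.

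Genes whose profiles were most like those of the called genes were found by the root mean square difference of centred log2(CPM + 0.1) over the 6 libraries, among genes of at least 1 FPKM. Nearest to Ace were Npnt (difference 0.00941), Zbtb4 (0.0127) and Snrnp70 (0.0129). Enpep was nearest to Rin1 (0.0304), Abhd5 (0.0368) and Fem1c (0.0395). Agtr1b was nearest to the T-box factor gene Tbx2 (0.148), the leukocyte receptor gene Lilrb4a (0.150) and the protease gene Adamts8 (0.168). Nearest to Ren1 were the sphingosine phosphate receptor gene S1pr3 (0.459), the vasopressin receptor gene Avpr1a (0.502) and the osteopontin gene Spp1 (0.539). Ren1 itself averaged 0.0409 FPKM in the labelled knockouts and 1.11 FPKM in wild type, so genes as rare as Ren1 were not compared. Its larger distances also carry the counting error of about 4 read pairs in the labelled knockouts. With 2 groups of 3 libraries these distances mostly reflect the size of the group difference.

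Around these genes, 78 other genes of the pathway were read from 4 lists, of which 73 were tested. Of the tested genes 22 rose, 12 fell and 39 did not pass, so that 46.6% were called, against 24.7% of all tested genes, and their median log2 fold change was 0.04, against 0.00 over all tested genes. With library totals 57 of the 73 tested genes were called higher and 5 lower, in a setting that called 50.6% of all tested genes, mostly higher.

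Among 18 other enzymes that cut angiotensins or their precursor, 14 were tested, and 1 rose, 2 fell and 11 did not pass, with a median of -0.12. With library totals 9 were called higher and edgeR called 0 lower, with a median of 0.29. Mme, neprilysin, which breaks down angiotensins and natriuretic peptides, rose 3.22-fold to 14.5 ± 1.97 CPM in the labelled knockouts, against 4.50 ± 0.347 CPM in wild type (SD, n = 3 each, log2 fold change 1.69, SE 0.14, adjusted p = 6.56e-06 in edgeR). The lysosomal proteases Ctsd (-0.14, SE 0.02) and Ctsa (-0.19, SE 0.03) fell, but both turned upward with library totals, to 0.27 and 0.22. The mast cell chymases, which form angiotensin II without Ace, did not pass, with Mcpt4 at -0.11 and Cma1 at -0.75 (adjusted p = 0.842 and 0.254 in edgeR). The 8 mast cell markers summed to 12.5 to 14.2 CPM in the labelled knockouts and 9.89 to 11.3 CPM in wild type, with 2 of them under 1 CPM in every library. Of 6 tested, 1 rose (Hdc, 0.95 in log2 fold change) and 5 did not pass, with a median of -0.11.

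Among 13 receptor partners and related receptors, 6 rose, 3 fell and 4 did not pass, with a median of 0.21, and with library totals 10 were called higher and 2 lower. The beta-arrestin genes, which uncouple receptors such as AT1 from G proteins, split. Arrb1 rose 1.45-fold (log2 fold change 0.54 with SE 0.05, adjusted p = 1.24e-05 in edgeR), while Arrb2 fell by 0.65 (SE 0.09, adjusted p = 0.000416 in edgeR) and did not pass under scaling by library totals (-0.24, adjusted p = 0.0531 in edgeR). Grk5, a kinase that phosphorylates such receptors, rose by 0.31. The bradykinin receptor gene Bdkrb1 fell 3.77-fold, to 0.816 ± 0.170 CPM in the labelled knockouts, against 3.08 ± 0.877 CPM in wild type (SD, n = 3 each, adjusted p = 0.000858 in edgeR). The other bradykinin receptor gene, Bdkrb2, rose 1.87-fold, to 3.62 ± 0.228 CPM in the labelled knockouts, against 1.935 ± 0.314 CPM in wild type (SD, n = 3 each, adjusted p = 0.011 in edgeR). Agtrap, whose product promotes internalisation of the AT1 receptor, rose by 0.38 (SE 0.09, adjusted p = 0.00842 in edgeR) and was, like Bdkrb2, picked after its value was seen.

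Among 28 genes that carry the AT1 signal inside the cell, 7 rose, 4 fell and 17 did not pass, with a median of 0.03. Plcb4, a phospholipase C downstream of Gq, rose 1.94-fold to 197 ± 1.06 CPM in the labelled knockouts, against 101 ± 5.002 CPM in wild type (SD, n = 3 each, adjusted p = 1.77e-08 in edgeR). Arhgef1, the exchange factor that links AT1 to RhoA in smooth muscle, rose 1.47-fold (log2 fold change 0.56, SE 0.04), and the related Arhgef12 rose 1.24-fold. The NADPH oxidase gene Nox4 rose by 0.30 (SE 0.02, adjusted p = 3.54e-06 in edgeR). The oxidase genes Cybb, Cyba and Ncf1, together with Rhoa, were the 4 that fell. With library totals Rhoa was called higher (0.23), Cyba (0.15) and Cybb (-0.03) did not pass, and Ncf1 still fell, by 0.37. Macrophages are rich in Cybb and Ncf1, and the 8 macrophage markers summed to 209 to 211 CPM in the labelled knockouts and 280 to 292 CPM in wild type, with C1qa at -0.89 and Cd68 at -1.34 in log2 fold change. Of these 8 markers 6 fell, 1 rose (Cd163, 0.66) and 1 did not pass, and with library totals 3 were called lower and 2 higher. The part of macrophage RNA in these decreases was not tested. With library totals 23 of the 28 were called higher and 1 lower, against 9425 higher and 768 lower of 20132 tested genes.

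**Figure D4:**
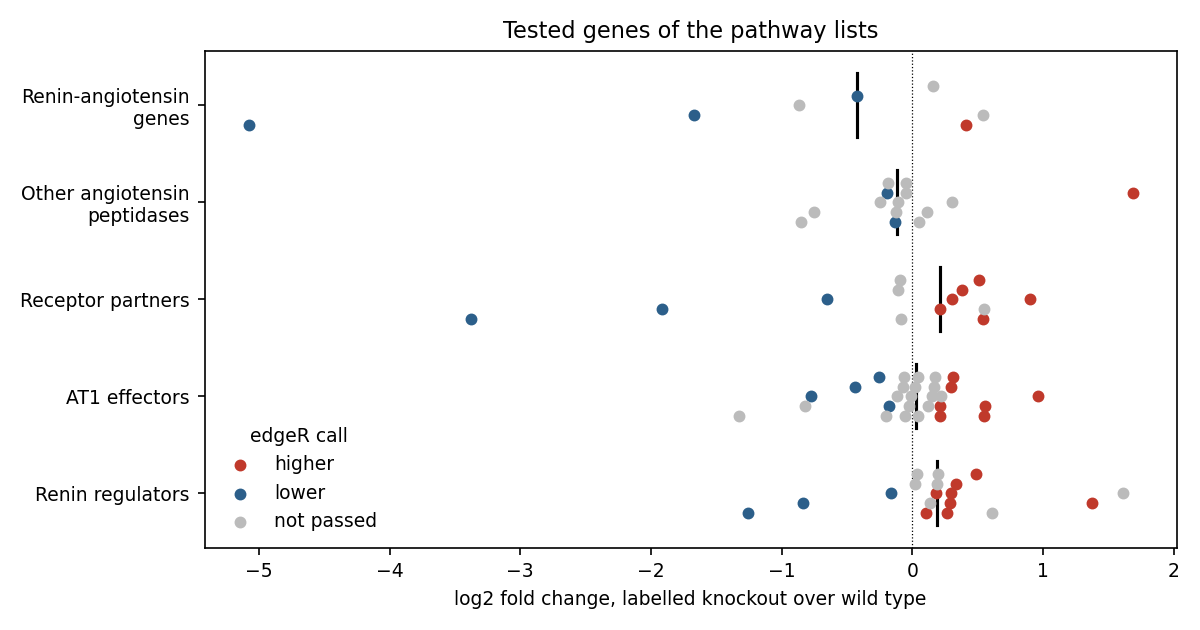
Log2 fold change of the labelled knockout over wild type (x axis) for the tested genes of the renin-angiotensin system and of 4 surrounding lists (rows), with red for higher, blue for lower and grey for not passed in edgeR, and a black line at each median. The medians are -0.42, -0.12, 0.21, 0.03 and 0.19 from top to bottom, and each row holds genes on both sides of 0.

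Among 19 genes of renin cell identity and renin control, 18 were tested, and 8 rose, 3 fell and 7 did not pass, with a median of 0.19. Adcy5, an adenylyl cyclase whose product cAMP drives renin release, rose 1.40-fold (log2 fold change 0.49 with SE 0.02, adjusted p = 1.21e-07 in edgeR). Npr1, the atrial natriuretic peptide receptor gene, rose by 0.33 (SE 0.03). The connexin genes Gja5 and Gja4 fell by 1.25 (SE 0.10) and 0.84 (SE 0.08), to 11.2 ± 1.36 CPM and 23.3 ± 2.22 CPM in the labelled knockouts, against 26.6 ± 1.52 CPM and 41.7 ± 2.53 CPM in wild type (SD, n = 3 each). Gja5 is known in both renin cells and arterial endothelium. With library totals 15 of the 18 were called higher and 2 lower. The 8 fibroblast markers, which stand for the adventitia, summed to 2078 to 2118 CPM in the labelled knockouts and 2003 to 2036 CPM in wild type. Of these 4 rose and 4 fell, with a median of 0.25, and the most abundant per length were the matrix genes Dpt at -0.37 and Dcn at -0.09 in log2 fold change. With library totals 7 of these 8 were called higher and edgeR called 0 lower.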

How the data were processed

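For 41064 genes the table gives a count and an FPKM value in each of 6 aorta libraries, per the file headers. The deposited counts are whole numbers with peaks at 4, 8 and 12 and were treated as estimated counts made by the authors, at about 4 for each read pair. No source names this. Rounding them changed no value. The deposited FPKM were scaled by the authors to each library's total. Bowtie 0.12.2, HISAT2 2.0 and build mm8 are named in the submitters' processing notes without a role. The sources used here do not name the counting tool. Gene coordinates in the table equal those of GENCODE M21 on GRCm38 for 92.0% of its genes and for all 9 described here, so no mm8 coordinate is used.

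After filterByExpr and TMM scaling, edgeR 4.0.16 in R 4.3.3 tested the labelled knockout against wild type over 20132 genes. An SE is the size of the log2 fold change over the root of the quasi-likelihood F statistic, and a 95% interval uses the fit's total degrees of freedom. The edgeR test was also run on simulated counts with planted changes. These had a single fixed dispersion and lacked the structure of about 4 counts per read pair, so they do not give the error rate in these data. Alternatives used limma 3.58.1, DESeq2 1.42.0, other scalings and filters, and libraries left out. Transcripts were compared with BLAST+ 2.17.0. Named were the 9 genes, up to 4 called genes of each pathway list with the smallest p and the 2 most abundant markers of each tissue. Ucp1, Mcpt4, Cma1, Agtrap, Bdkrb2, Hdc, Cd163, Rhoa, Cyba, Cybb, Ncf1, Umod, Kap, Calb1, Slc22a6, Slc12a3 and Scnn1g were named outside that rule, where a role or a count called for them. The genes and lists were chosen with earlier results of these data known. One gene of the pathway lists is not reported here.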

Additional observations from a re-analysis of the deposited data

How the results depend on the processing

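Of 110 refits of the 7 tested genes, 98 kept the direction and the side of the threshold, 3 lost a call (Enpep, with library totals and in both limma fits), 9 gained one (Agt, Agtr1a and Atp6ap2) and none turned the direction. With library totals edgeR called 9425 genes higher and 768 lower, against 2658 and 2323 with TMM, and limma gave 9447 and 867 on log2(FPKM + 1) and 9330 and 866 on log2(FPKM + 0.1), which also rest on library totals. In these fits 3 renin-angiotensin genes were called higher, against 1 with TMM and 2 in DESeq2, and of the other pathway genes 57, 56 and 57 were higher and 5, 6 and 6 lower, against 22 and 12. Leaving out each library in turn gave 1966 to 2429 higher and 1790 to 2044 lower calls over all genes, 1 to 2 higher and 3 lower renin-angiotensin genes, and 21 to 25 higher and 9 to 10 lower pathway genes. No label says that the replicate number pairs libraries, and deviations of same-numbered libraries correlated at -0.02 to 0.06. This cannot exclude pairing, because much of each deviation is counting error. With the replicate number as a block edgeR called 4560 genes in place of 4981, and no call of the 7 genes changed. Agt and Agtr1a lay under the filter on mean FPKM and could not be fitted there. Depth limits Agtr2 and Mas1, and Ren1 in the labelled knockouts, to a few read pairs.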
